A study of Nothobranchius furzeri with 10 samples.

Results

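In liver RNA of the killifish Nothobranchius furzeri, 52 of 26739 genes formed a set that followed the gene Nfu_g_1_021459 from library to library and was lowest in the library JG76. A gene was a member if its mean level was at least 10 CPM (counted reads per 1000000 counted reads of the library), if JG76 was its lowest library, if its highest library exceeded its lowest at least 5-fold after 0.1 CPM was added to each, and if its log2(CPM + 0.1) had a Pearson r of at least 0.9 with Nfu_g_1_021459 over the 10 libraries. A mean of at least 10 CPM was reached by 7586 genes, and these were the background for all counts here. The members were thus chosen by their own levels, so the low values in JG76, the width of the range and the shared profile describe how the set was made and were not tested.

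All 10 libraries came from livers of male fish of the strain GRZ, a short-lived inbred line, at 10 weeks of age, and all carried the label swim-tunnel, in which a fish swims against a current. The labels gave 1 group, and resting fish were not analysed here. The libraries are named JG74 to JG78 and JG80 to JG84 by their titles, whose numbers the labels do not explain, and nothing in the labels says whether each came from a separate fish. Depth ranged from 13806555 counted reads in JG75 to 39405713 in JG81, and JG76 had 30094107.

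The liver makes most proteins of the blood plasma and stores and releases sugar and fat, and its parenchymal cells, the hepatocytes, devote much of their RNA to a small number of secreted proteins. RNA from whole liver also holds transcripts of vessel, bile duct and blood cells and of any tissue that was taken along with the organ. When a group of transcripts is low in such a bulk sample, fewer cells of a type and less RNA per cell cannot be told apart. The identifiers in the tables are not paired with gene names, and 0 of them matched the 38438 genes of the reference table, so the members are given by identifier, without role or sequence, and the liver label could not be checked against marker genes.

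The members together took a large and uneven share of the liver reads. They held 6.64% of counted reads in JG74, 11.4% in JG75, 0.978% in JG76, 11.7% in JG77, 8.17% in JG78, 11.1% in JG80, 6.20% in JG81, 4.13% in JG82, 4.44% in JG83 and 7.36% in JG84. JG75, JG77 and JG80 were therefore the high libraries, JG82 and JG83 were low, and JG76 lay below all others. The mean was 7.22 ± 3.52% (SD, n = 10), and it was 7.91 ± 2.92% without JG76 (SD, n = 9). The highest share was 12.0 times the lowest, or 2.84 times without JG76. Exact 95% binomial intervals, which cover counting error only, were narrow against these gaps, with 0.975 to 0.982% in JG76 and 4.12 to 4.14% in JG82. Of the high libraries, JG75 was the shallowest of all and JG77 one of the deeper ones, while JG81, the deepest, held 6.20%. Whether the share went with depth was not tested. In JG77, 18 members were among the 100 genes with the highest CPM, and in JG76 there were 0.

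**Figure D1:**
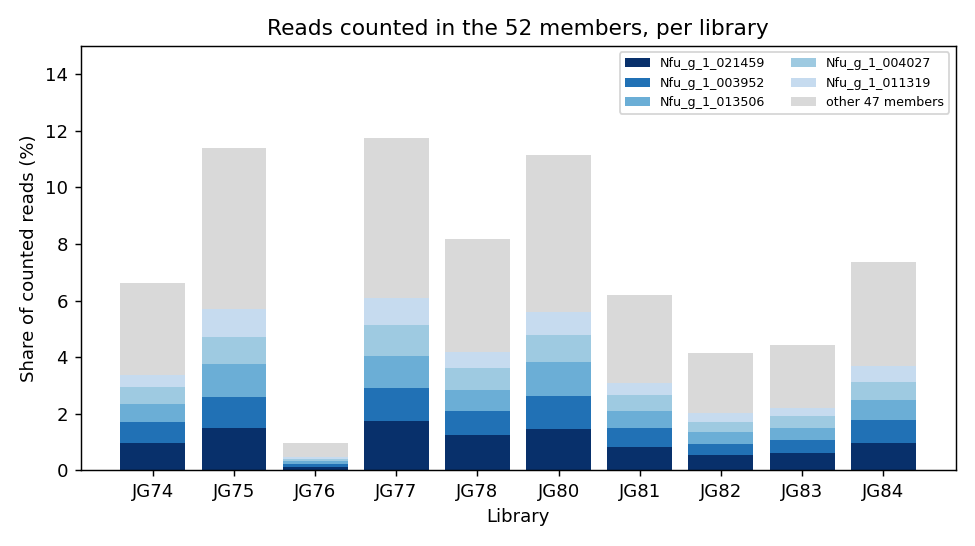
Share of counted reads (%) held by the 52 members in each library, with the 5 most abundant members in blue and the other 47 in grey. JG75, JG77 and JG80 stand at 11.1 to 11.7%, JG82 and JG83 at 4.13 and 4.44%, and JG76 at 0.978%, with each coloured part smaller in step.

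The members were unequal in level. A mean of at least 1000 CPM was reached by 16 members, another 20 lay between 100 and 1000 CPM, and 16 lay below 100 CPM. The median of the members' mean levels was 243.2 CPM, against 26.4 CPM for all 7586 genes. The 5 most abundant members held 50.4% of the CPM of the set, summed over all libraries, and the 10 most abundant held 75.8%. Per length the order changed: Nfu_g_1_021459 remained first with a mean of 9619 RPKM (reads per kilobase of gene and per 1000000 counted reads, recomputed from the counts), while Nfu_g_1_011319, the fifth by CPM, was in the third place with 6631 RPKM, and Nfu_g_1_003952, the second by CPM, was in the seventh place with 3560 RPKM. A total of 14 members were among the 100 genes with the highest mean RPKM.

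Nfu_g_1_021459, the gene the others were matched to, was itself the most abundant member. It had 9800 CPM in JG74, 15105 in JG75, 1253 in JG76, 17240 in JG77, 12474 in JG78, 14753 in JG80, 8286 in JG81, 5275 in JG82, 6022 in JG83 and 9546 in JG84. JG77, JG75 and JG80 were thus its high libraries, and the step between JG82 and JG76 was wider than any other step between libraries next to each other in order. Its highest level was 13.8 times its lowest with 0.1 CPM added to each, and 3.27 times without JG76.

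The next most abundant members repeated this profile. Nfu_g_1_003952 had a lowest level of 972.2 CPM in JG76, a median of 7729 CPM and a highest level of 11942 CPM in JG77. For Nfu_g_1_013506 the lowest level was 898.8 CPM in JG76, the median 6771 CPM and the highest 11899 CPM in JG80. Nfu_g_1_004027 had 851.5 CPM in JG76, a median of 6224 CPM and at most 10900 CPM, in JG77. JG76 was separate from the other 9 libraries in each, with next lowest levels of 4070, 4162 and 3606 CPM in JG82. Nfu_g_1_011319 had 857.2 CPM in JG76, a median of 4871 CPM and a highest level of 9708 CPM, in JG75, and its next lowest library was JG83.

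The ratio to Nfu_g_1_021459 was nearly fixed in some leading members and less so in others. Nfu_g_1_004027 stood at 0.661 ± 0.0288 times the CPM of Nfu_g_1_021459 (SD, n = 10), with 0.617 in JG74 and 0.701 in JG83 as its extremes and 0.679 in JG76. For Nfu_g_1_003952 the ratio was 0.757 ± 0.0542 (SD, n = 10) and 0.776 in JG76. In both genes the ratio in JG76 thus lay within 1 SD of its mean over libraries. This is no check, because that mean and SD include JG76 and the genes were chosen by r over the same 10 libraries. Nfu_g_1_011319 was less regular, with 0.545 ± 0.0833 (SD, n = 10) and its highest ratio, 0.684, in JG76. Nfu_g_1_020840 had 0.383 ± 0.0480 (SD, n = 10) and its lowest ratio, 0.309, in JG76. The 5 genes with the highest r with Nfu_g_1_021459 were Nfu_g_1_004027 (0.999), Nfu_g_1_016603 (0.997), Nfu_g_1_003952 (0.996), Nfu_g_1_012205 (0.996) and Nfu_g_1_009167 (0.996), each over 10 libraries. Nfu_g_1_016603 was the least abundant of these 5, with 5.58 CPM in JG76, a median of 38.2 CPM and 57.9 CPM in JG75, its highest library. Its ratio was less fixed than its r: the log2 ratio to Nfu_g_1_021459 had an SD of 0.139, against 0.063 for Nfu_g_1_004027. A high r is part of the rule, so these values are descriptions.

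The members shared the order of the other libraries too, which follows in large part from the condition on r. How many of all 7586 genes have these orders was not counted. Of 52 members, 51 were highest in JG75 (21 members), JG77 (19) or JG80 (11), and 1 was highest in JG74. For 45 members JG75, JG77 and JG80 were the 3 highest libraries. When JG76 was set aside, 33 members were lowest in JG82, 15 in JG83 and 4 in JG74, and for 45 members JG82 and JG83 were the lowest pair. The JG76 level was at most 0.5 times that of the next lowest library in 51 members. This follows in part from the rule too, and its share over all 7586 genes was not counted.

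**Figure D2:**
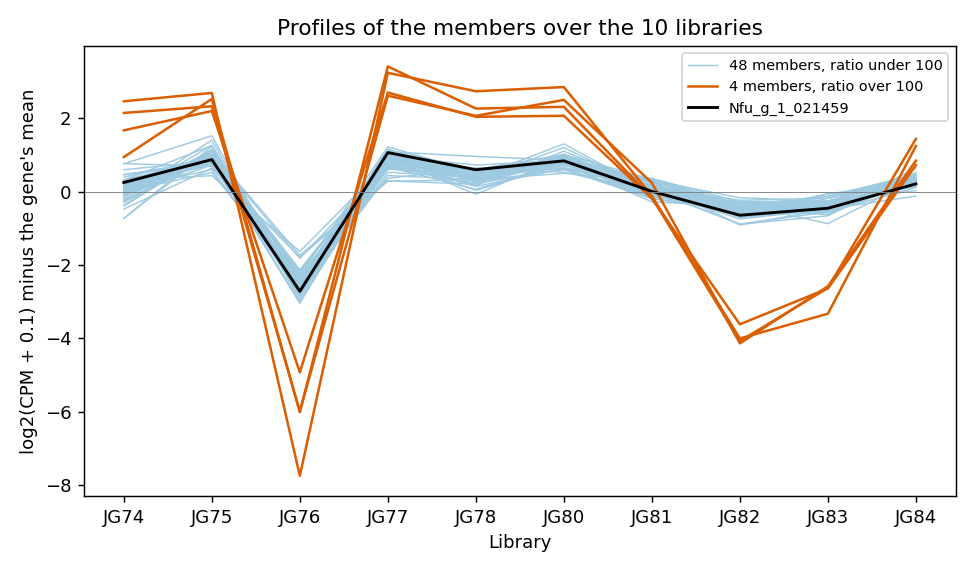
Profiles of the 52 members over the 10 libraries, as log2(CPM + 0.1) minus the mean of each gene, with 48 members in blue, 4 in orange and Nfu_g_1_021459 in black. Of the 48, Nfu_g_1_021459 counted among them, 30 stay within 0.5 log2 units of the black line in every library. The largest departure of a blue line is 1.09, while the orange lines fall further than the black one in JG76, JG82 and JG83.

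Set against other genes, the conditions of the rule were met to different degrees. JG76 was the lowest library in 674 of the 7586 genes (8.88%), and the highest library exceeded the lowest at least 5-fold in 1014 (13.4%). Both held for 98 genes (1.29%), of which 52 were members. An r of at least 0.9 with Nfu_g_1_021459 was reached by 53 genes (0.699%), and all but 1 of these met every other condition too. This overlap follows in part from the choice of Nfu_g_1_021459, which is itself lowest in JG76 with a ratio of 13.8, so the conditions are not independent. All 4 conditions together gave 0.685%. As a description, the ratio of highest to lowest library had a median of 12.2 in the members and 2.34 in all 7586 genes. JG76 minus the mean of the other libraries had a median of -2.90 log2 units in the members and of -0.04 in all genes. Under TMM scaling these were -2.88 and -0.01. TMM takes a factor per library from a trimmed mean of log ratios, on the assumption that most genes are unchanged.

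JG76 decided much of this. Without it, the ratio of highest to lowest library had a median of 2.90 in the members, against 2.29 in all 7586 genes. A ratio of at least 2 without JG76 was found in all 52 members and in 63.6% of all genes. The conditions on mean, ratio and r applied to the other 9 libraries gave 9 genes, of which 4 were members. These 4 were Nfu_g_1_005279, Nfu_g_1_014236, Nfu_g_1_017718 and Nfu_g_1_014237, the members with the widest range. No other member met these conditions. Nfu_g_1_021459 itself fell below the 5-fold limit, with a ratio of 3.27 without JG76. The shared profile outlasted it in part: r with Nfu_g_1_021459 over the 9 other libraries was at least 0.9 in 39 members (75%) and in 52 of 7586 genes (0.685%), 13 of them no members. The median r was 0.981 with JG76 and 0.940 without it in the members, Nfu_g_1_021459 included. Because the members were chosen with all 10 libraries, the values over 9 libraries are no independent check.

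**Figure D3:**
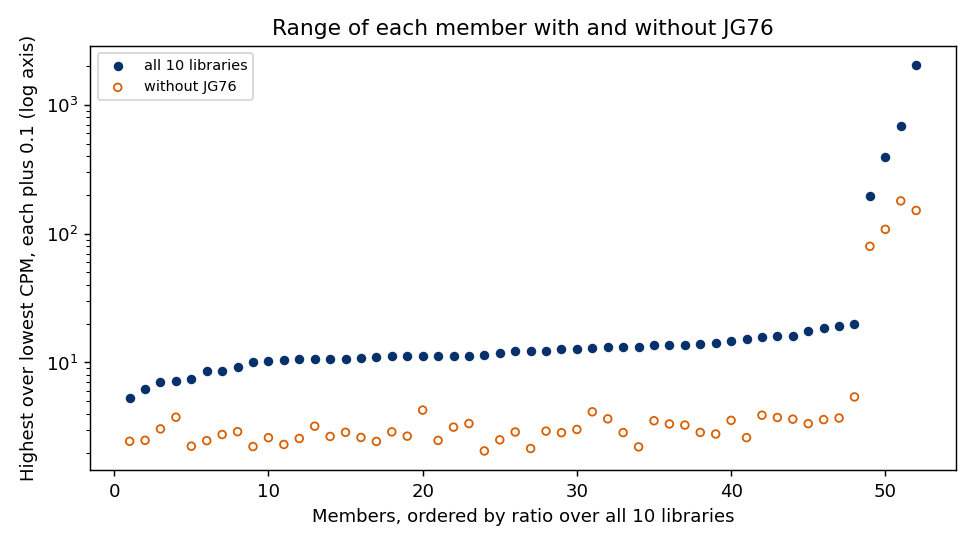
Highest over lowest level (CPM, each plus 0.1, log axis) of each member with all 10 libraries (filled) and without JG76 (open). Of the members, 48 lie between 5.34 and 20.1 with all libraries, and 4 lie between 197.4 and 2028.

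The members fell into a large even part and a small steep part, a division made after the values were seen. In 48 members the ratio of highest to lowest library lay between 5.34 and 20.1. In the other 4, Nfu_g_1_005279, Nfu_g_1_014236, Nfu_g_1_017718 and Nfu_g_1_014237, it lay between 197.4 and 2028, and no member lay between these ranges. The gap depends on the rule, since Nfu_g_1_002792, left out by its r of 0.897, had a ratio of 92.9. The ratios of the 4 also depend on the added 0.1 CPM, because their levels in JG76 rest on few reads. The slope of log2(CPM + 0.1) on that of Nfu_g_1_021459 had a median of 0.92 in the 48 members, and 43 of them lay between 0.8 and 1.2. In the 4 steep members the slope was 2.28 to 3.24, so their levels changed by a larger factor than that of Nfu_g_1_021459.

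Nfu_g_1_005279 was the steepest member. It had 157.7 CPM in JG74, 184.6 in JG75, 0.0332 in JG76, 270.1 in JG77, 190.6 in JG78, 206.3 in JG80, 26.3 in JG81, 1.68 in JG82, 2.75 in JG83 and 67.7 in JG84. JG76, JG82 and JG83 were thus nearly empty, and JG81 lay between them and the high libraries. The level in JG76 rests on 1 read, below the 0.0997 CPM of 3 reads, against 8896 reads in JG77, and the ratio of their CPM was 8128 with an exact 95% counting interval of 1458 to 321070. JG82, with 66 reads, gives a firmer ratio of 151.4 to the highest library, with 0.1 CPM added to each.

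The other steep members had the same low libraries. Nfu_g_1_014236 had 182.8 CPM in JG77, its highest library, a median of 39.6 CPM and 0.166 CPM in JG76, from 6021 reads in JG77 and 5 reads in JG76. Nfu_g_1_017718 had 52.0 CPM in JG77, a median of 25.3 CPM and 0.0332 CPM in JG76, from 1 read. Nfu_g_1_014237, at 10.2 CPM the member with the lowest mean, had 26.2 CPM in JG77 and 0.0332 CPM in JG76, also from 1 read. Without JG76 the ratio of highest to lowest library remained between 79.8 and 179.5 in these 4 genes. These ratios also depend on the added 0.1 CPM, since JG82 was then the lowest library, with 9 reads in Nfu_g_1_014237 and 15 in Nfu_g_1_017718. Pairwise r among them was 0.985 to 0.995 over the 10 libraries and 0.973 to 0.997 without JG76. A high r among them follows in large part from the rule and from grouping them by their wide range. Together they held a mean of 0.0200% of counted reads, so the summed share of the set does not rest on them.

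The 48 even members departed from the profile of Nfu_g_1_021459 to different degrees. The log2 ratio to Nfu_g_1_021459, centred on its own mean over libraries, stayed within 0.5 in every library for 30 of the 48, Nfu_g_1_021459 counted among them, and its SD had a median of 0.24. The coefficient of variation of the ratio to Nfu_g_1_021459 had a median of 15.9% over the other 47 even members, whereas CPM itself varied with a median of 49.0% over the 48. The largest departure of a member was in JG74 for 12 of the 47, in JG78 for 10 and in JG76 for 9. In JG78, 43 of the 47 lay below the profile of Nfu_g_1_021459, with a median of -0.23, and in JG77, 40 did. In JG82, 41 lay above it, with a median of 0.16, and in JG84, 39 did. All 47 are ratios to the same gene. The level of that gene in a library and a departure of the members therefore cannot be told apart by these counts.

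**Figure D4:**
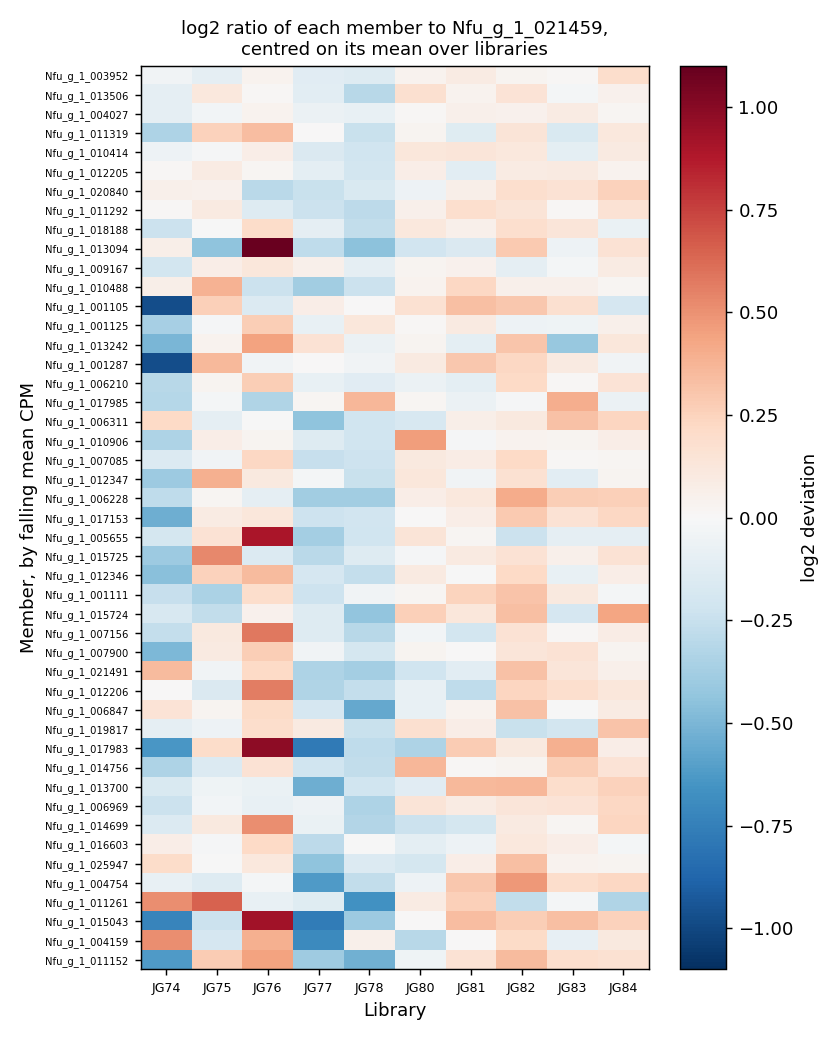
Log2 ratio of each of 47 even members to Nfu_g_1_021459, centred on its mean over libraries (colour), with members in rows by falling mean CPM and libraries in columns. Nfu_g_1_013094 stands out as high in JG76 (1.09), and Nfu_g_1_001105 and Nfu_g_1_001287 as low in JG74 (-0.97 and -0.98).

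Nfu_g_1_013094 fell least in JG76. It had 584.4 CPM in JG76, a median of 2127 CPM and 3122 CPM in JG77, and its ratio of 5.34 was the lowest of the set. Relative to Nfu_g_1_021459 it lay 1.09 log2 units above its mean in JG76. Nfu_g_1_017983, Nfu_g_1_015043 and Nfu_g_1_005655 came next in JG76, with 0.98, 0.93 and 0.90 log2 units. Nfu_g_1_005655 had an r with Nfu_g_1_021459 of 0.960 with JG76 and 0.962 without it. The lowest r without JG76 was found in Nfu_g_1_015043 (0.667), Nfu_g_1_017983 (0.721) and Nfu_g_1_011152 (0.794). Nfu_g_1_015043, the member with the lowest r (0.905), had 4.62 CPM in JG76, a median of 19.3 CPM and 29.1 CPM in JG80 as its highest level.

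**Figure D5:**
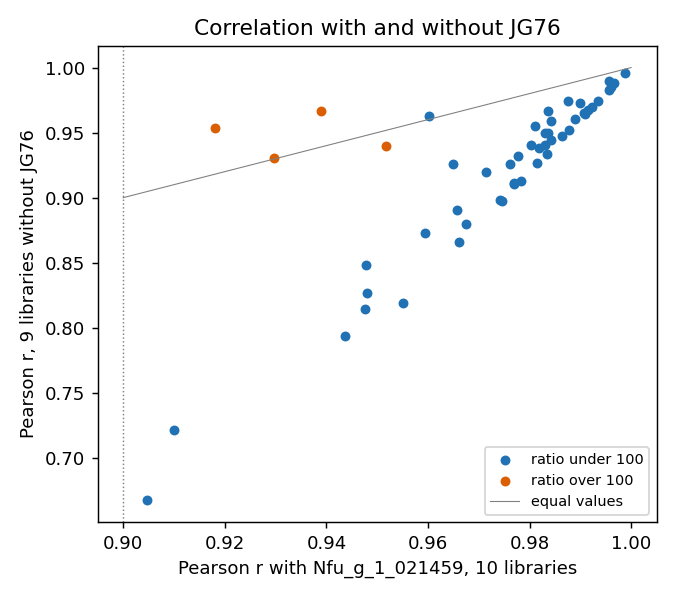
Pearson r of each member with Nfu_g_1_021459 over 10 libraries (horizontal) and over the 9 libraries without JG76 (vertical), for the even members (blue) and the steep members (orange), with the grey line marking equal values. Most even members lie below the line, down to 0.667 for Nfu_g_1_015043, and the steep members lie between 0.930 and 0.967 on the vertical axis.

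Nfu_g_1_001105 and Nfu_g_1_001287, singled out after their values were seen, departed together in another library. Nfu_g_1_001105 had 604.6 CPM in JG74 and Nfu_g_1_001287 had 477.9 CPM there, the next lowest levels after 137.2 and 117.4 CPM in JG76. In JG77, their levels were 2197 and 1660 CPM. A lower ratio to Nfu_g_1_021459 in JG74 was not limited to them, since 34 of the 47 even members besides Nfu_g_1_021459 lay below its profile there. The median was -0.19 log2 units, against -0.97 and -0.98 in this pair. These are ratios and not levels. In log2(CPM + 0.1) minus the mean of each gene, the members had a median of 0.09 in JG74. Their r with each other was 0.998 over 10 libraries and 0.993 without JG76, whereas r with Nfu_g_1_021459 without JG76 was 0.814 and 0.826. They stand in neighbouring rows of the deposited table and have 753 and 741 bases. Nfu_g_1_001111, in the row on the other side of Nfu_g_1_001287, lay at -0.25 log2 units in JG74.

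Members often stood in neighbouring rows. A member in the row above or below was found for 21 of 52 members (40.4%) and for 25 of the 7534 other genes with a mean of at least 10 CPM (0.332%). These 21 members formed 10 runs, 9 of 2 members and 1 of 3. The runs included Nfu_g_1_021459 with Nfu_g_1_020840, Nfu_g_1_003952 with Nfu_g_1_004027, and the steep Nfu_g_1_014236 with Nfu_g_1_014237. What the order of rows stands for is not given in the sources used here, and how reads shared by near-identical neighbours were counted is not given either, so levels within a run may not be independent.

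The members were short. The gene length implied by counts and RPKM had a median of 1209 bases in the members (quartiles 762 and 2122) and of 3246 bases in all 7586 genes (quartiles 1736 and 5431). Of the 52 members, 47 were shorter than the median of all genes, and 20 (38.5%) had fewer than 1000 bases, against 12.3% of all genes. The 7586 genes were not matched to the members for level, with median mean levels of 26.4 CPM and 243.2 CPM. Length against genes of like level was not examined. The members ranged from 243 bases in Nfu_g_1_007156 to 8892 bases in Nfu_g_1_017983. Nfu_g_1_021459 has 1037 bases.

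The conditions of the rule differed in how many genes lay just outside them. Leaving out the condition on the lowest library added 0 genes and leaving out the condition on the ratio added 1, Nfu_g_1_006788, with a ratio of 4.26 and an r of 0.987. These small numbers follow in part from the condition on r, which favours genes low in JG76. Just inside, the lowest ratio was that of Nfu_g_1_013094. Leaving out the minimum mean added 17 genes, the nearest being Nfu_g_1_021201 with a mean of 9.52 CPM. Leaving out the condition on r added 46 genes, and the nearest of these, Nfu_g_1_002792 with an r of 0.897, had the steep profile: 33.9 CPM in JG75, its highest library, 0.266 CPM in JG76, 0.791 CPM in JG82 and 0.623 CPM in JG83. A limit of 0.85 for r, with the other conditions kept, gave 56 genes.

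Few genes ran opposite to Nfu_g_1_021459 over the 10 libraries. Among the 7586 genes an r of -0.8 or below with Nfu_g_1_021459 was found in 7 and one of -0.9 or below in 0. The lowest r was -0.874 for Nfu_g_1_010457, which had 42.0 CPM in JG76 and 20.1 CPM in JG80, its lowest library. Over all 7586 genes the lowest r without JG76 was -0.923, in a gene other than Nfu_g_1_010457. That value was further from 0 than the r of some members without that library, which went down to 0.667. The lower quartile of r over all 7586 genes was -0.20 with JG76 and -0.43 without it. Genes opposite to Nfu_g_1_021459 without JG76 were not counted, so the small number applies to the 10 libraries only.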

How the data were processed

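Raw read counts of 26739 genes and RPKM values of the same genes were deposited by the authors for 10 libraries. The submitters' processing notes name bcl2fastq 1.8.4, STAR 2.4.1d and featureCounts 1.4.6-p4, while the genome build, the annotation and how shared reads were treated are not given in the sources used. The deposited RPKM values follow from the counts only if library totals are taken in rotation down the rows: over 3039 genes the implied gene length then varied by a median of 0.00122% between libraries, against 52.0% with each library's own total. They were used for gene lengths only, and RPKM was recomputed with own totals. CPM used column totals, and a count of 3, the limit that a count of 0 allows, was 0.0761 to 0.217 CPM. Scaling by edgeR 4.0.16 and DESeq2 1.42.0, on genes with at least 1 CPM in at least 5 libraries, served as alternatives. The script that applies the rule was checked on simulated counts. The labels give no groups to compare, and the levels of the members were not tested. The members and lists were chosen with earlier results of these data known, and lists of named genes could not be matched to identifiers. Genes named are Nfu_g_1_021459, the members at the extremes of mean, ratio and r with or without JG76, and the nearest genes outside each limit, by a rule set with the design. All others were chosen after their values were seen. Python 3.11.15 and R 4.3.3 were used.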

Additional observations from a re-analysis of the deposited data

Results flagged for a closer look

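Of 21 sets of 10 values examined for 1 library far from the rest, 13 were marked, all with JG76 as the far library. Chance marks about 1 in 20 sets of unselected values, but that rate is no yardstick here. The members were chosen because JG76 is their lowest library, and the marked genes outside the set met the same condition. These marks thus follow in large part from the rule and from values that move together. The median of log2(CPM + 0.1) over members was 5.13 in JG76. Single genes on the same scale in JG76 were at 10.29 for Nfu_g_1_021459, 9.93 for Nfu_g_1_003952, 9.81 for Nfu_g_1_013506, 9.73 for Nfu_g_1_004027, 9.74 for Nfu_g_1_011319, 9.0 for Nfu_g_1_012205 and 7.88 for Nfu_g_1_009167. The weaker members Nfu_g_1_016603, Nfu_g_1_015043 and Nfu_g_1_011152 were at 2.51, 2.24 and 1.07. Outside the set, Nfu_g_1_006788 was at 4.56 and Nfu_g_1_021201 at 1.07. The summed share of reads was examined in percent and not in log2 units. It was not marked, but this cannot be set beside the marks on the log2 scale. Also without a mark were the 4 steep members, in which JG82 and JG83 were low as well. The members Nfu_g_1_013094 and Nfu_g_1_017983 and, outside the set, Nfu_g_1_002792 were not marked either.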

How the results depend on the processing

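The number of members was 52 and lay between 43 and 69 under 15 alternatives that kept all libraries, of which the ones with Nfu_g_1_004027 as the gene to match and with JG82 and JG83 allowed as lowest library were chosen after seeing the data. It was 43 with r of at least 0.95 and 43 with Spearman rho, of which 41 were members. With 1 library left out it was 50 to 54, except without JG76, where the rule on the lowest library cannot apply. There 9 genes met the other conditions, of which 4 were members, all of them steep. The median ratio of highest to lowest library was 11.6 to 12.2 with 1 library other than JG76 left out and 2.90 without JG76. The median pairwise r among members was 0.967, from 0.966 to 0.978 without 1 other library and 0.911 without JG76. The mean share of reads was 6.72 to 7.91% with 1 library left out, 10.0% as a share of recomputed RPKM and 6.22% without Nfu_g_1_021459. No paired analysis was possible because every library carries the same group label. Counting noise limits the steep members in JG76, where 3 of 4 have 1 read, and also in JG82, where Nfu_g_1_014237 has 9 reads.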
